A study of Homo sapiens with 6 samples.

Results

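The 6 actin genes of the human genome were examined in ribosome-associated RNA from cycling HEK293-T cells. ACTB and ACTG1 encode the cytoplasmic β- and γ-actins. ACTA1 encodes the skeletal muscle α-actin, ACTC1 the cardiac α-actin, ACTA2 the smooth muscle α-actin and ACTG2 the smooth muscle γ-actin. The genes were chosen by name as the family of conventional actins, a rule that uses no measured value. Earlier results of these data were known when they were chosen. All 6 were among the 16834 genes of the deposited table.

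HEK293-T is a human embryonic kidney line, labelled here as epithelial-like. The HEK293-T Flp-In cells of both groups carried 1 inserted copy of ccTaggedRP, a bicistronic construct driven by the CAG promoter. It encodes 2 tagged copies of the large-subunit ribosomal protein RPL10a. Flag-RPL10a-hCdt carries the degron of CDT1 and is predicted to accumulate in G0/G1, and HA-RPL10a-hGem carries the degron of geminin and is predicted to accumulate in G2/M. The cells were asynchronous and were not sorted. RNA was taken from immunoprecipitates made with a Flag antibody (Flag-IP, n = 3) or an HA antibody (HA-IP, n = 3), selected for poly(A) and sequenced with reads of 2x150 bases. The comparison asks which transcripts differ between ribosomes marked in G0/G1 and ribosomes marked in G2/M. A cell can hold both tagged proteins. The sources used here do not say whether the 3 replicates were separate cultures, so p-values measure the spread between these libraries, which may be technical.

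The libraries held 23174532 to 44134833 reads on the listed genes. A normalized count is a gene's reads divided by the size factor of its library. Fold changes are differences of log2(normalized count + 1), and a gene was called, or passed, at an adjusted p of at most 0.05 by limma over all genes. All 8 genes of a list for a kidney epithelial line, among them KRT8, KRT18 and EPCAM, were present in every library, with summed normalized counts of 49950 to 57595. Genes outside that label were present too. Of 16 heart muscle markers, 12 were in the table, and none was at 0 in any library. Their summed normalized counts were 133136, 94105 and 61328 in Flag-IP replicates 1, 2 and 3, and 2309, 1439 and 12377 in HA-IP replicates 1, 2 and 3. HA-IP replicate 3 therefore stood apart from the other HA-IPs in muscle genes, and the fold change or adjusted p of the muscle actins and of the heart and thin filament genes named is also given without it.

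Actin is the protein of the thin filament of muscle and of the microfilaments of nearly every other cell. Cytoplasmic actins form the cortex, stress fibres and, at the end of mitosis, the contractile ring. Muscle actins are normally made in quantity only in differentiated muscle, where they assemble with tropomyosin and troponin. Actin genes are classic targets of serum response factor (SRF), which works with the cofactors MRTFA and MRTFB, and these cofactors are held inactive by unpolymerized actin.

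The coding sequences are shown because the assignment of a read to a gene depends on how far they differ. Below are the first 60 coding bases of the canonical transcripts (GENCODE release 44, GRCh38), with capitals where a base differs from ACTA1 in an alignment of the whole coding sequences.
ACTB: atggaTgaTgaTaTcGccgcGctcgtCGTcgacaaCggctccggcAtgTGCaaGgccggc
ACTG1: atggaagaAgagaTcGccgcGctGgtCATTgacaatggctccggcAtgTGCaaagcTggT
ACTA1: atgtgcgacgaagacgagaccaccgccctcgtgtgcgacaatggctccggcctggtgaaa
ACTC1: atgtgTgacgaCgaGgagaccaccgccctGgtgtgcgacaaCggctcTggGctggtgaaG
ACTA2: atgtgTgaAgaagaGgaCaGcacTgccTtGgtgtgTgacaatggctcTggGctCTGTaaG
ACTG2: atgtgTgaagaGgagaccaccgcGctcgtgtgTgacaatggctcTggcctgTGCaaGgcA
Among the bases shown ACTC1 differed from ACTA1 at 8 positions, ACTG2 at 10, ACTB and ACTG1 at 15 each, and ACTA2 at 16. ACTB, ACTG1 and ACTG2 lack some bases of ACTA1 near the start, so their lines are not in register with it. The missing bases were not counted, so these numbers do not rank the genes by likeness to ACTA1. Over whole coding sequences of 1128 to 1134 bases, identity ran from 81.7% for ACTB against ACTA2 to 91.2% for ACTB against ACTG1. ACTA1 and ACTC1 shared 85.6% of their bases, as did ACTA1 and ACTB. The longest exact run in the transcripts of any pair was 59 bases, between ACTB and ACTG1. The longest run common to ACTB and ACTA1 was 58 bases, less than a read of 150 bases, and is shown as the longest exact match between a cytoplasmic and a muscle actin.
ACTB and ACTA1: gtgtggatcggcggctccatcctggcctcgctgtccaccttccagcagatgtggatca
No stretch of 150 bases in the canonical transcript of any of the 6 genes occurred in a transcript of another gene. Reads were trimmed, so shorter lengths matter too. At 100 bases 3 stretches of ACTB were shared, all with the pseudogene ACTBP2. At 50 bases 10.89% of the stretches of ACTB and 4.22% of those of ACTG1 were shared with another gene. For the muscle actins this share was 0% to 1.87%.

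ACTB and ACTG1 were abundant and nearly level between the groups. ACTB (ENSG00000075624, GRCh38 chr7:5526409-5563902, minus strand) was at 45430, 44511 and 45132 normalized counts in the Flag-IPs, in the order of replicates 1, 2 and 3 used throughout. The HA-IPs were at 47251, 46898 and 46900. The 3 HA-IPs lay above the 3 Flag-IPs, a separation of the groups that 32.2% of all genes in the table showed in either direction. Means were 45024 ± 469 (SD, n = 3) and 47016 ± 204 (SD, n = 3), a ratio of 1.04. The log2 fold change (HA-IP minus Flag-IP) was 0.06, with a 95% interval of -0.04 to 0.16, and did not pass the test (limma, adjusted p = 0.42).

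ACTG1 (ENSG00000184009, chr17:81509413-81523847, minus strand) had 59581, 55135 and 53508 normalized counts in the Flag-IPs. The HA-IPs had 62393, 59761 and 58630. The groups overlapped, since Flag-IP replicate 1 was above HA-IP replicate 3. Means were 56075 ± 3144 (SD, n = 3) and 60261 ± 1931 (SD, n = 3). The log2 fold change was 0.10 (95% interval -0.02 to 0.23, adjusted p = 0.26), and under quantile normalization the values of ACTB and ACTG1 were -0.07 and -0.02. An antisense lncRNA gene in the table, ENSG00000229848, overlaps ACTG1, and the strand setting of the counting is not given in the sources used here.

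ACTA1, ACTC1 and ACTA2 were higher in the Flag-IPs, and ACTG2 did not pass the test. Thus 3 of the 6 actin genes were called at an adjusted p of at most 0.05, all toward the Flag-IPs. Of all 16834 genes, 12.9% were called in either direction, 7.1% higher in the Flag-IPs and 5.79% higher in the HA-IPs. When limma was run without its mean-variance trend, the fold changes stood but 0 of the 6 passed (adjusted p = 0.085, 0.094 and 0.066 for ACTA1, ACTC1 and ACTA2), with 3 at an unadjusted p under 0.05. In bulk RNA, fewer cells with a transcript and less of it per cell cannot be told apart.

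ACTA1 (ENSG00000143632, chr1:229430365-229434104, minus strand) showed the largest fold change of the 6 genes. Flag-IP replicates 1, 2 and 3 had 56767, 43743 and 28688 normalized counts. HA-IP replicates 1, 2 and 3 had 599, 285 and 5264. Every Flag-IP was above every HA-IP, and HA-IP replicate 3 was the highest HA-IP. In all, 20, 40 and 97 genes had a higher normalized count than ACTA1 in the 3 Flag-IPs, against 7615, 9733 and 1286 in the 3 HA-IPs. The means were 43066 ± 14052 (SD, n = 3) and 2050 ± 2788 (SD, n = 3), a ratio of 21.0. The log2 fold change was -5.42 with an SE of 0.766 (95% interval -7.1 to -3.74, adjusted p = 0.0016), which is 42.9-fold on the log scale. Without HA-IP replicate 3 it was -6.64, and without HA-IP replicate 2 it was -4.54, and the gene was called in both fits. By edgeR it was -4.41 (adjusted p = 0.0063) and by DESeq2 -4.39 (adjusted p = 0.0028).

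ACTC1 (ENSG00000159251, chr15:34790107-34795589, minus strand) followed the same order of libraries at a lower level. The Flag-IPs had 2490, 1226 and 724 normalized counts, and the HA-IPs had 46.6, 26.7 and 245. Again the groups did not overlap, and HA-IP replicate 3 was the highest of its group. Means were 1480 ± 910 (SD, n = 3) and 106 ± 121 (SD, n = 3). The log2 fold change was -4.25 with an SE of 0.644 (95% interval -5.66 to -2.84, adjusted p = 0.0023), and the ratio of means was 14.0. It was -5.17 without HA-IP replicate 3 and -3.59 without HA-IP replicate 2, and it was called each time.

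ACTA2 (ENSG00000107796, chr10:88935074-88991339, minus strand) differed less and with another order within the groups. The Flag-IPs had 421, 444 and 343 normalized counts, and the HA-IPs had 237, 226 and 175. The groups did not overlap, and HA-IP replicate 3, the highest HA-IP for ACTA1, was the lowest for ACTA2. Means were 403 ± 53.0 (SD, n = 3) and 213 ± 32.9 (SD, n = 3). The log2 fold change was -0.92 with an SE of 0.138 (95% interval -1.22 to -0.62, adjusted p = 0.0022), or 1.89-fold. Leaving out each library in turn gave -1.03 to -0.79, the latter without HA-IP replicate 3, all called. On the opposite strand ACTA2 is overlapped by STAMBPL1, FAS and the antisense RNA ACTA2-AS1, all in the table, so its counts are uncertain if strand was not used.

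ACTG2 (ENSG00000163017, chr2:73892314-73919865, plus strand) was near the lower limit of these libraries, with 9 to 51 reads in each. Its normalized counts were 19.5, 53.2 and 42.4 in the Flag-IPs against 36.0, 34.7 and 9.92 in the HA-IPs. The groups overlapped. The log2 fold change was -0.58 (95% interval -1.66 to 0.50, adjusted p = 0.50), and without HA-IP replicate 3 the estimate was -0.00. Its coefficients of variation were 44.9% and 54.7%.

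**Figure D1:**
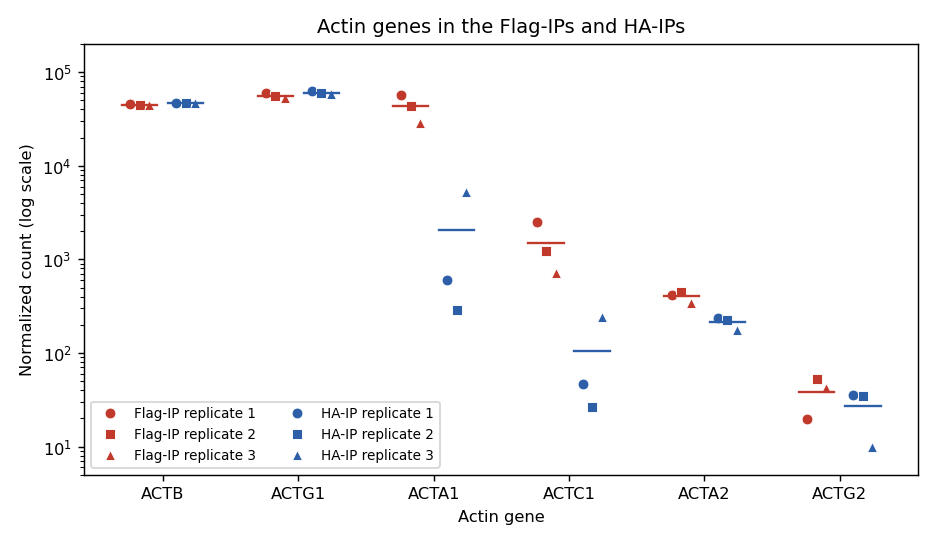
Normalized counts (log axis) of the 6 actin genes in each Flag-IP and HA-IP library, with group means as bars. ACTB and ACTG1 sit at 44511 or more in all 6 libraries, whereas ACTA1 runs from 28688 to 56767 in the Flag-IPs and from 285 to 5264 in the HA-IPs.

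Levels of different genes were compared per kilobase of canonical transcript. In the Flag-IPs ACTG1 had 29221 ± 1638 normalized counts per kilobase (SD, n = 3), ACTA1 had 28884 ± 9424 and ACTB had 24848 ± 259. The libraries of ACTA1 spanned 19241 to 38073, a range that held all those of ACTG1 and ACTB, so the order of these 3 genes was not resolved. ACTC1 followed at 1071 ± 658, then ACTA2 at 299 ± 39.3 and ACTG2 at 25.6 ± 11.5, with no overlap between neighbours. In the HA-IPs the order was ACTG1 (31402 ± 1006), ACTB (25947 ± 112), ACTA1 (1375 ± 1870), ACTA2 (158 ± 24.4), ACTC1 (76.7 ± 87.2) and ACTG2 (17.9 ± 9.78). There, the range of ACTC1 overlapped those of both ACTA2 and ACTG2. With the length of all exons in place of the canonical transcript, the Flag-IP means were 18087 for ACTA1, 13839 for ACTG1 and 10221 for ACTB, and in Flag-IP replicate 3 ACTG1 (13205) was above ACTA1 (12049).

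The actin pool therefore differed in makeup. Per kilobase, the 4 muscle actins together made up 41.7%, 36.5% and 27.5% of it in Flag-IP replicates 1, 2 and 3. In HA-IP replicates 1, 2 and 3 they made up 1.07%, 0.699% and 6.38%. The lowest Flag-IP was above the highest HA-IP. ACTA1 held 95.1% to 96.3% of the normalized counts on muscle actins in the Flag-IPs, against 65.2%, 49.8% and 92.4% in the HA-IPs. All 6 genes together took 0.547%, 0.484% and 0.417% of the reads in the Flag-IPs against 0.355%, 0.340% and 0.351% in the HA-IPs. ACTB and ACTG1 summed to 98640 to 105011 normalized counts in the Flag-IPs against 105529 to 109644 in the HA-IPs, which did not overlap.

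**Figure D2:**
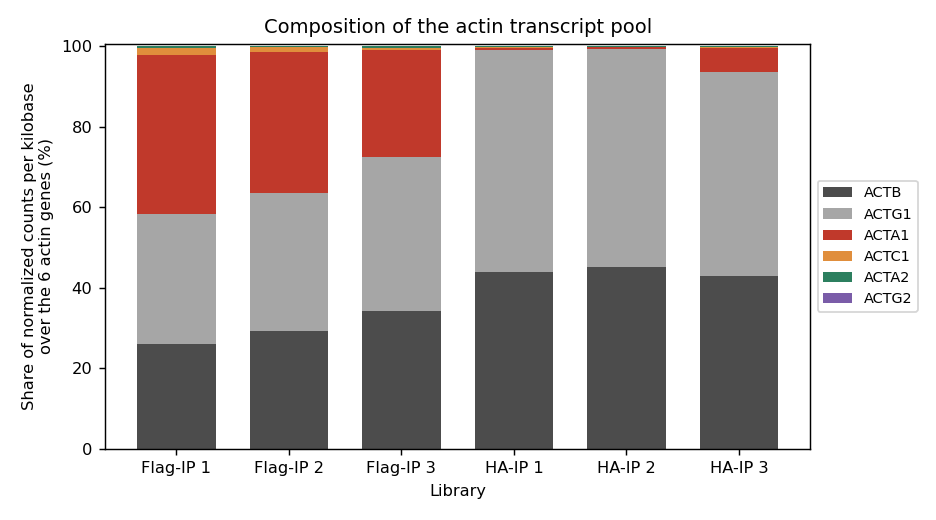
Share of each actin gene in the normalized counts per kilobase summed over the 6 genes, in percent, for each library. Muscle actins fill 27.5% to 41.7% of the pool in the Flag-IPs against 0.699% to 6.38% in the HA-IPs, nearly all of it ACTA1 in the Flag-IPs.

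Ratios within a library do not depend on how libraries were scaled. The ratio of ACTG1 to ACTB in normalized counts was 1.31, 1.24 and 1.19 in the Flag-IPs against 1.32, 1.27 and 1.25 in the HA-IPs, which overlapped (exact permutation test, two-sided, p = 0.4, adjusted over 5 ratios 0.5). The ratio of ACTA1 to ACTB was 1.25, 0.983 and 0.636 against 0.0127, 0.00608 and 0.112. For ACTC1 to ACTB it was 0.0548, 0.0275 and 0.0160 against 0.000986, 0.000570 and 0.00522. For ACTA2 to ACTB it was 0.00926, 0.00999 and 0.00760 against 0.00502, 0.00481 and 0.00374. Each of these 3 ratios separated the groups and reached p = 0.1 (exact permutation test), the smallest that 3 against 3 libraries allow, or 0.167 adjusted over the 5 ratios. The ratio of ACTG2 to ACTB overlapped (exact p = 0.5). The ratio of ACTC1 to ACTA1 was 0.0439, 0.0280 and 0.0252 in the Flag-IPs against 0.0777, 0.0937 and 0.0465 in the HA-IPs, so ACTC1 held a larger part of the 2 in the HA-IPs. That last ratio was given no test.

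Actin has close relatives that can take its reads. POTEE, POTEI and POTEJ are primate genes that end in an actin-like part. In POTEJ this part was 92.1% identical to the coding sequence of ACTB and 83.5% identical to that of ACTA1. POTEJ had 135, 153 and 92.2 normalized counts in the Flag-IPs against 2.12, 2.97 and 25.4 in the HA-IPs (adjusted p = 0.0025). POTEI (adjusted p = 0.0049) and POTEE (adjusted p = 0.042) were higher in the Flag-IPs too. Both had fewer than 10 reads in each HA-IP, as had the pseudogene ACTBP2 below. These genes met the filter of at least 10 reads in 3 libraries through the Flag-IPs alone, which partly sets their direction. POTEJ, with 3, 3 and 23 reads in the HA-IPs, needed the Flag-IPs for it too. POTEE was at 12.9 to 27.3 normalized counts in the Flag-IPs against 0 to 8.82 in the HA-IPs, and its call was lost without Flag-IP replicate 1 or 2 or HA-IP replicate 1 or 2. Both POTEJ and ACTA1 peaked in replicate 3 among the HA-IPs, whereas ACTB was flat. Among the Flag-IPs their order differed, since POTEJ was highest in replicate 2 and ACTA1 in replicate 1. With 3 reads of POTEJ in each, HA-IP replicates 1 and 2 cannot be ordered for this gene. The ratio of POTEJ to ACTA1 ranged from 0.00238 (Flag-IP replicate 1) to 0.0104 (HA-IP replicate 2) and was given no test. ACTBP2, a processed pseudogene of ACTB, had 39.0, 38.3 and 17.5 against 4.94, 7.92 and 8.82 normalized counts (adjusted p = 0.013, lost without Flag-IP replicate 2 or HA-IP replicate 1), the 1 gene called of 3 actin pseudogenes with a median of -0.43. Of 18 actin-related and actin-like genes 14 were in the table. Of these 3 passed toward the Flag-IPs and 1 toward the HA-IPs. The latter was ACTR10, a dynactin subunit, at 0.21 (adjusted p = 0.028, lost without Flag-IP replicate 2 or any 1 HA-IP and under scaling to the same total). The median of this list was 0.10, beside -0.0049 over all genes. Of all genes, 7.1% were called toward the Flag-IPs and 5.79% toward the HA-IPs. Whether reads of the POTE genes and ACTBP2 came from actin transcripts was not tested.

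Other muscle genes moved with ACTA1 and ACTC1. All 12 heart muscle markers in the table passed toward the Flag-IPs, with a median log2 fold change of -4.1. Over all genes 7.1% were called in that direction. The calls remained 12 without HA-IP replicate 3 and were 8 without HA-IP replicate 1. The table holds only genes with at least 10 reads in at least 3 libraries. A gene low in the HA-IPs could meet this through the Flag-IPs alone, which partly sets its direction. CASQ2 (1, 1 and 3 reads in the HA-IPs) and TNNT2 (4, 1 and 33) needed the Flag-IPs to meet this filter. So did MYBPC3 (7, 3 and 61), MB (6, 7 and 50) and MYL2 (19, 8 and 71). In the thin filament list TNNT2, XIRP2 (0, 2 and 4 reads) and LMOD2 (3, 1 and 14) needed them too. MYH7, the slow and cardiac β-myosin heavy chain, had 83895, 65504 and 42902 normalized counts in the Flag-IPs against 1031, 478 and 6766 in the HA-IPs (-5.37, adjusted p = 0.00097), and its fold change was -6.46 without HA-IP replicate 3. Its ratio to ACTA1 was 1.48 to 1.5 in the Flag-IPs against 1.72, 1.68 and 1.29 in the HA-IPs. RYR2, the cardiac calcium release channel, showed the smallest called change of the list (-0.87, adjusted p = 0.0015, -0.94 without HA-IP replicate 3). MYH7 and RYR2 lost the call without the limma trend, where 1 of the 12 markers passed.

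Of 19 thin filament partners of muscle actin, 12 were in the table and 7 were absent. Of the 12 present 10 passed, all toward the Flag-IPs, with a median of -2.2, beside 7.1% of all genes called in that direction. TNNT2 and TNNI3 are also among the heart muscle markers and TPM2 among the smooth muscle markers, so their calls count in both lists. The count was 10 without HA-IP replicate 3 and 7 without Flag-IP replicate 2. TNNC1, the calcium-binding troponin C of heart and slow muscle, had 8443, 5073 and 3361 normalized counts against 99.5, 65.4 and 957 (-4.82, adjusted p = 0.0026, -6.00 without HA-IP replicate 3). TNNT2, cardiac troponin T, stood at 124 to 229 against 0.99 to 36.4 (adjusted p = 0.0049, and 9.4e-06 without HA-IP replicate 3). It needed the Flag-IPs to meet the read filter, which partly sets its direction. TNNI3, cardiac troponin I, was -1.88 (adjusted p = 0.012, lost without HA-IP replicate 1 or 2) and -2.34 without HA-IP replicate 3. The tropomyosins TPM1 and TPM2, which lie along the filament, were -2.81 and -2.16 (adjusted p = 0.00056 and 0.0070) and -3.23 and -2.64 without HA-IP replicate 3, and TPM1 kept 1007 or more normalized counts in every HA-IP. ACTN2, the α-actinin of the Z-disc, was -2.22 (adjusted p = 9.6e-05) and -2.42 without HA-IP replicate 3. NEBL, which encodes nebulette, was -0.58 (adjusted p = 0.022, lost without Flag-IP replicate 2 or HA-IP replicate 1 or 2) and -0.67 without HA-IP replicate 3. Without the limma trend 2 of the 12 passed, ACTN2 among them.

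Markers of further cell types were counted beside the muscle actins. Each count here is to be set beside the 7.1% of all genes called toward the Flag-IPs and 5.79% toward the HA-IPs. Of 13 smooth muscle markers 11 were in the table. Of these 5 passed toward the Flag-IPs, in each of the 6 fits with a library left out as well. Their extremes were MYL9, a regulatory myosin light chain, at -4.94 (adjusted p = 0.00014) and TAGLN, the actin-binding transgelin, at -1.31 (adjusted p = 0.0054). SMTN, CALD1 and MYLK of the same list did not pass (-0.01, -0.10 and -0.23). The list had a median of -0.23, and its summed level was 5694 to 7339 in the Flag-IPs against 4613 to 5000 in the HA-IPs. Of 9 fibroblast markers 7 were in the table, with summed levels of 6327 to 8835 and 2720 to 3358 and a median of -2.4. Of these 6 passed (5 without HA-IP replicate 3). The calls ran from COL1A2 at -4.82 (adjusted p = 0.00058) to FBLN1 at -0.23 (adjusted p = 0.021, lost without Flag-IP replicate 2 or any 1 HA-IP). Of 8 endothelium markers 6 were in the table, with a median of -1.2 and sums of 196 to 299 and 89.1 to 108. Of these 4 passed (3 without HA-IP replicate 3). The calls ran from TIE1 (adjusted p = 0.0033), which was at 0 in HA-IP replicate 2, to CLDN5 at -1.13 (adjusted p = 0.037). CLDN5 was called only without Flag-IP replicate 3 when 1 library was left out. Of 13 fast skeletal muscle markers 4 were in the table and only CASQ1, a calcium store protein, passed (-2.54, adjusted p = 0.021, lost without Flag-IP replicate 2 or HA-IP replicate 2), with a list median of -0.79 and sums of 183 to 391 and 166 to 201. Their part in the result for ACTA1, ACTC1 and ACTA2 was not tested. MYL9 (8, 3 and 15 reads in the HA-IPs) and CNN1 (1, 3 and 15) needed the Flag-IPs to meet the read filter. So did COL1A2 (19, 8 and 62), DCN (3, 2 and 14) and TIE1 (2, 0 and 3). TEK (2, 6 and 2) and CASQ1 (12, 1 and 7) needed them too, which partly sets the direction of all these genes. In the kidney epithelial list 2 of 8 genes passed toward the HA-IPs, EPCAM at 0.34 and CDH1 at 0.29 (adjusted p = 0.0029 and 0.017, the latter lost without Flag-IP replicate 2 or HA-IP replicate 1 or 2), and 5 genes passed without Flag-IP replicate 3. In that list PAX2 passed toward the Flag-IPs at -0.79 (adjusted p = 0.047), and this call was lost with any 1 library left out, and the median was 0.12.

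**Figure D3:**
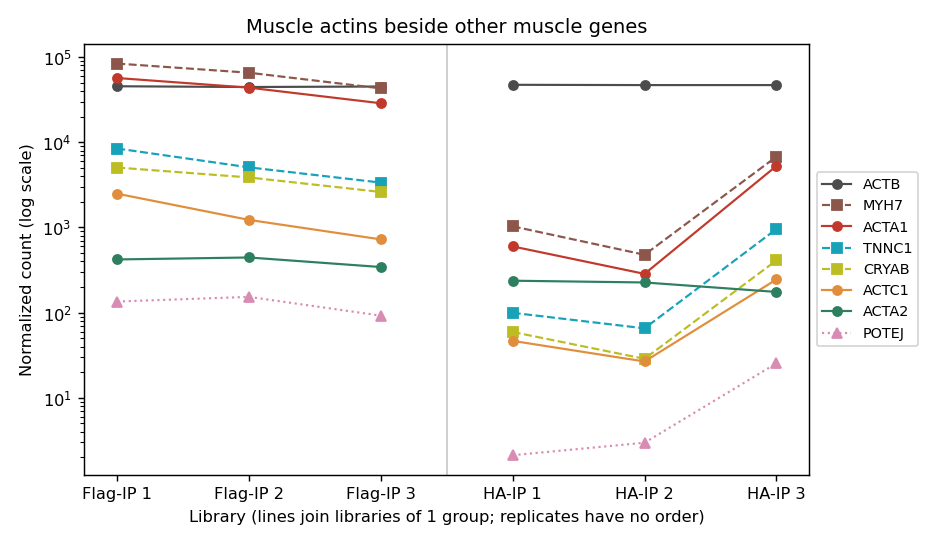
Normalized counts (log axis) per library of ACTB, the muscle actins ACTA1, ACTC1 and ACTA2, the muscle genes MYH7 and TNNC1, the chaperone CRYAB and the actin-like gene POTEJ. In the HA-IPs all of them but ACTB and ACTA2 are highest in replicate 3, where ACTA1 has 5264 and ACTA2 has 175.

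Likeness of pattern was measured by Pearson's r of log2 values over the 6 libraries, among 11781 genes with a symbol and a mean of at least 100 normalized counts. The points share libraries, and the values are descriptions. The genes most like ACTA1 were CRYAB, a small heat shock protein of heart and lens (r = 0.9994), CAMK2A, a calcium-dependent kinase (0.9993), and MYH7 (0.9993). CRYAB had 5050, 3862 and 2609 normalized counts in the Flag-IPs against 59.3, 28.7 and 410 in the HA-IPs. Those most like ACTC1 were GPX3, MYOM1 and ANK3 (0.9994, 0.9988 and 0.9976), of which MYOM1 encodes the M-band protein myomesin. For ACTA2 they were IL10RB, DMD and SFRP1 (0.9960, 0.9957 and 0.9945), and DMD encodes dystrophin. The fold changes of these genes were not alike in size, since ANK3 and GPX3 changed by -0.20 and -0.55 and ACTC1 by -4.25. For ACTG1 the genes most alike were MRPS27, FAN1 and GOLPH3 (0.9971, 0.9954 and 0.9938). Among those most like ACTB were DCLRE1A and MTPAP (0.9973 and 0.9963), and among those most like ACTG2 were DHX34 and C3orf70 (0.9958 and 0.9841).

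Partners of cytoplasmic actin were counted by function. Over all genes 5.79% were called toward the HA-IPs and 7.1% toward the Flag-IPs, shares to set beside each list count here and below. Of 18 genes for actin folding and maturation, 2 passed in each direction, with a median of -0.057. CCT4 and CCT5, subunits of the chaperonin that folds actin, were higher in the HA-IPs (0.29 and 0.21, adjusted p = 0.0052 and 0.015), and CCT4 was called with any 1 library left out. CCT4 had 25606, 23771 and 25031 normalized counts in the Flag-IPs against 30927, 28944 and 31073 in the HA-IPs. PFDN2 and PFDN5, subunits of the prefoldin that delivers actin to the chaperonin, were higher in the Flag-IPs (-0.39 and -0.44, adjusted p = 0.032 and 0.038). Without Flag-IP replicate 3 the calls were 6 toward the HA-IPs and 4 toward the Flag-IPs, and without Flag-IP replicate 2 or HA-IP replicate 1 or 2 they were 1 and 0. PFDN2 lost the call without Flag-IP replicate 2 or HA-IP replicate 1 or 2, CCT5 without Flag-IP replicate 2 or any 1 HA-IP and under quantile normalization, and PFDN5 without any 1 library but Flag-IP replicate 3. NAA80, which acetylates the actin N-terminus, and SETD3, which methylates an actin histidine, did not pass (-0.17 and 0.12, adjusted p = 0.50 and 0.20).

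Of 13 genes for monomer binding and severing 12 were in the table. Of these 6 passed toward the Flag-IPs and 1 toward the HA-IPs, with a median of -0.28. The 6 became 4 without Flag-IP replicate 2 or without HA-IP replicate 1 or 2. TMSB4X, which encodes the monomer-sequestering thymosin β4, had 2174, 1808 and 1304 normalized counts in the Flag-IPs against 327, 387 and 570 in the HA-IPs (-2.05, adjusted p = 0.00021). The groups did not overlap. TMSB10, its relative, was -0.51 (adjusted p = 0.026), and DSTN, the depolymerizing factor destrin, was -0.44 (adjusted p = 0.015), and both lost the call without Flag-IP replicate 2 or HA-IP replicate 1 or 2. PFN1 and CFL1, the main profilin and cofilin, did not pass (-0.00 and -0.12, adjusted p = 0.98 and 0.20). CAP1, which recycles actin monomers, was 0.18 (adjusted p = 0.029), and this call was lost without Flag-IP replicate 2 or any 1 HA-IP, under scaling to the same total and under quantile normalization.

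Of 18 genes of the Arp2/3 complex and other nucleators, 3 passed toward the HA-IPs and 1 toward the Flag-IPs, with a median of 0.062. Over all genes the shares were 5.79% and 7.1%, and no result about the list is read from such small counts. ARPC2, a core subunit of Arp2/3, had 5302, 5248 and 4567 normalized counts against 3456, 3380 and 3628 (-0.53, adjusted p = 0.00058). The formins DIAPH3 and DIAPH1, which elongate unbranched filaments, were 0.21 and 0.17 (adjusted p = 0.018 and 0.034). None of the 3 calls toward the HA-IPs was left without Flag-IP replicate 2, HA-IP replicate 1 or HA-IP replicate 3, nor when libraries were scaled to the same total, and 1 was left without Flag-IP replicate 1 or HA-IP replicate 2. Of 18 capping, crosslinking and membrane linking genes, 7 passed toward the HA-IPs and 4 toward the Flag-IPs, with a median of 0.15. The 7 became 0 without Flag-IP replicate 2, HA-IP replicate 1 or HA-IP replicate 3 and under scaling to the same total, 1 without HA-IP replicate 2, and 2 without Flag-IP replicate 1. The 4 became 2 without Flag-IP replicate 2 or HA-IP replicate 1 or 2. FLNC, the muscle filamin, was -1.24 (adjusted p = 0.00020) and CAPZB, a barbed-end capping subunit, -0.18 (adjusted p = 0.027, lost without Flag-IP replicate 2 or any 1 HA-IP). PLS1 and ACTN1, which bundle and crosslink filaments, were 0.27 and 0.17 (adjusted p = 0.041 and 0.044). With 1 library left out, PLS1 kept the call only without Flag-IP replicate 1 and ACTN1 only without Flag-IP replicate 3, and both lost it under scaling to the same total.

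**Figure D4:**
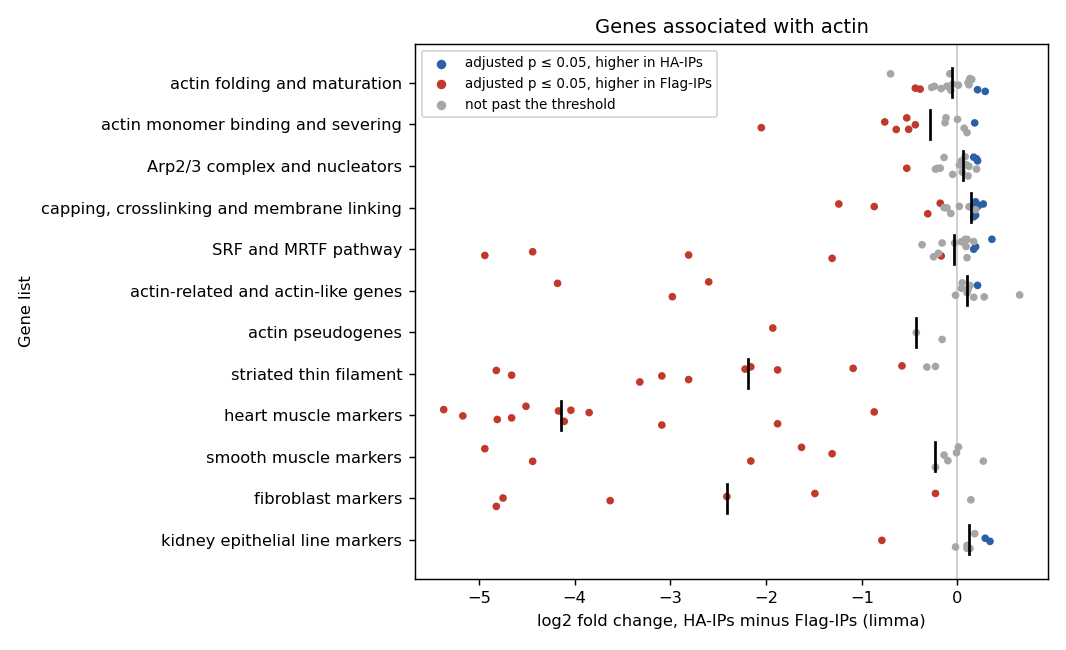
log2 fold changes (HA-IP minus Flag-IP) of the genes in 12 lists, each point a gene coloured by its call and each bar the median of a list. Heart muscle markers have a median of -4.1 and the striated thin filament -2.2, and the lists for cytoplasmic actin partners have medians of -0.28 to 0.15.

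SRF itself was slightly higher in the Flag-IPs, with 4526, 4750 and 4797 normalized counts against 4058, 4264 and 4201 (-0.17, adjusted p = 0.041). Its call was lost without Flag-IP replicate 2 or 3 or any 1 HA-IP. MRTFA and MRTFB did not pass (0.08 and 0.09, adjusted p = 0.32 and 0.28). Of 20 genes of the SRF and MRTF list 19 were in the table. Of these 5 passed toward the Flag-IPs and 3 toward the HA-IPs, with a median of -0.031. Among the former were TAGLN, TPM1 and MYL9, which other lists hold too. MYL9 and CNN1 of this list needed the Flag-IPs to meet the read filter. CCN1, a matricellular protein, showed the largest change toward the HA-IPs at 0.36 (adjusted p = 0.013, lost without Flag-IP replicate 2 or HA-IP replicate 2 or 3), and the 3 calls in that direction became 0 in those 3 fits and 1 without Flag-IP replicate 1 or HA-IP replicate 1.

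The CArG box, the site that SRF binds, was searched in the 250 bases before the start of 35116 RefSeq promoters. The pattern was CC, 6 bases that are each A or T, and GG. A site that departs from this pattern was not counted, so no match does not mean no SRF site. The box is palindromic in form, so a search of 1 strand covers both. It occurred in 407 of them (1.16%). Of the actin genes, ACTG1, ACTA1 and ACTC1 had 1 box and ACTG2 had 2, and no match lay in this window of ACTA2. ACTB was not searched. A window of 30 bases around a box is shown for each gene, with the box in capitals (RefSeq, GRCh38.p14), to set the sites beside the measured levels.
ACTG1, chr17:81512874-81512903, minus strand: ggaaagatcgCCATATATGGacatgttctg
ACTA1, chr1:229434172-229434201, minus strand: tgcccaacacCCAAATATGGctcgagaagg
ACTC1, chr15:34795639-34795668, minus strand: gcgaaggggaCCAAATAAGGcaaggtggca
ACTG2, chr2:73892888-73892917, plus strand: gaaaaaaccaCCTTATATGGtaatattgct
The boxes of ACTG1, ACTA1 and ACTC1 ended 84, 87 and 99 bases before the start, and those of ACTG2 ended 100 and 63 bases before it. The 4 windows shown overlap no annotated exon, those of ACTG1 and ACTG2 lie within the span of longer transcripts of the same gene, and that of ACTC1 lies within the span of the lncRNA gene GJD2-DT. Among these genes ACTA1 and ACTC1 passed the test toward the Flag-IPs and ACTG1 and ACTG2 did not pass. ACTA2, with no match to this exact pattern in the window, passed toward the Flag-IPs.

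**Figure D5:**
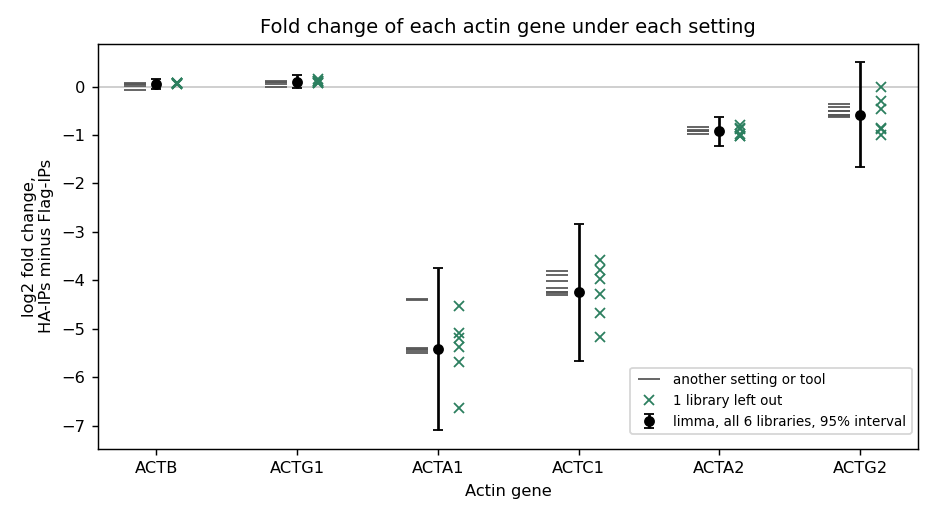
log2 fold change (HA-IP minus Flag-IP) of each actin gene by limma with its 95% interval, under other settings or tools, and with 1 library left out. ACTA1, ACTC1 and ACTA2 stay below 0 in every fit, whereas ACTB and ACTG1 lie near 0 and turn to -0.07 and -0.02 under quantile normalization.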

How the data were processed

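Poly(A)-selected RNA from 3 Flag-IPs and 3 HA-IPs was sequenced. Per the submitters' processing notes, the authors trimmed reads with Trimmomatic 0.36, aligned them to GRCh38 (hg38) with STAR 2.5.2b, counted them per gene with featureCounts (Subread 1.5.2) and normalized them with DESeq2. They left out genes with fewer than 10 reads in at least 3 samples. The deposited signal is a read count per gene divided by a size factor for each library, called the normalized count here. The deposited log2 fold changes and p-values of the authors' own comparison were not used. Strand setting and gene annotation are not given in the sources used here.

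Each normalized count was a whole multiple, within 0.01, of the value of 1 read in its library, for 100% of values, and the recovered reads gave size factors of 0.770 to 1.42. As the values are normalized, the main test was limma 3.58.1 with a trend (R 4.3.3), two-sided, on log2(normalized count + 1) over all 16834 genes, with Benjamini-Hochberg adjustment and a threshold of 0.05. A fold change on this scale understates the change of low genes. With 3 libraries per group the exact permutation test of a ratio cannot go below 0.1. Replicates of a group differed by more than sampling noise, with chi-square of 5.0 to 20.7 per degree of freedom. Scripts were tested on simulated data. Alternatives were edgeR 4.0.16 and DESeq2 1.42.0 on recovered reads, pseudocounts of 0.1 and 10, a mean of at least 50, other scalings, limma without the trend, a replicate block, and each library left out. Identity and shared stretches were computed with Biopython 1.88 from GENCODE release 44, which held 16683 of the identifiers. Promoters came from RefSeq.

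The actin genes and the gene lists were chosen with earlier results of these data known. Of each list, the genes with the smallest and largest called change in each direction were named, along with fixed partners of actin, and for each actin gene the 3 genes most alike in pattern. Some of the latter are not reported here. SMTN, CALD1, MYLK, POTEI, KRT8 and KRT18 were named outside this rule, after their values were seen. So were CASQ2, XIRP2, MYBPC3, MB, MYL2, LMOD2, CNN1, DCN and TEK, which were named for their low reads in the HA-IPs.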

Additional observations from a re-analysis of the deposited data

How the results depend on the processing

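Of 95 refits of the 6 actin genes, 90 kept direction and side of the threshold. Under quantile normalization ACTB turned to -0.0696 and ACTG1 to -0.0154, and the cause was not tested. Without the limma trend ACTA1 stayed at -5.42, ACTC1 at -4.25 and ACTA2 at -0.921 but none passed (adjusted p = 0.085, 0.094 and 0.066). The actin genes called fell from 3 to 0, with 3 at an unadjusted p under 0.05 and 3 called by edgeR and by DESeq2, and the genes called overall fell from 2171 to 188. With each library left out, 620 to 3059 genes were called, 620 without Flag-IP replicate 2, 780 without HA-IP replicate 1, 900 without HA-IP replicate 2 and 1216 without HA-IP replicate 3. The 3 actin genes called remained 3 in each of these fits. PFN1, at -0.00, turned to 0.0017 by DESeq2 and ran from -0.0798 to 0.0789 with a library left out. Of 746 refits of 47 other named genes 592 were unchanged in direction and call, 151 lost the call and 3, all of PFN1, turned. Replicates with the same number did not deviate together (r = -0.156, 0.0306 and -0.31 over 13141 genes). Flag-IP replicate 1 with HA-IP replicate 3 gave 0.302. Deviations from a mean of 3 libraries are tied to each other, so these values cannot tell whether the numbers pair the libraries. With the replicate as a block 1662 genes were called and ACTA1 was -5.42 (adjusted p = 0.0097). The median of all genes moved to -0.057 with equal totals and 0.044 with quantile normalization. ACTG2 rests on 9 to 51 reads per library.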
